A study of Mus musculus with 6 samples.

Results

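Adm, Stc2, Bnip3, Higd1a, Ddit4, Ndrg1, Mxi1, P4ha1, Kdm3a and Car12 are 10 genes that hypoxia-inducible factor (HIF) is known to switch on and that lie outside glycolysis. They were chosen by name, as known HIF targets of the retina and other tissues, but with earlier results of these data known. Shares of all tested genes that are given beside them are therefore a description only. The set makes up 10 of the 32285 genes in the count table. All 10 were detected in every library, with between 265 and 15000 reads per gene and library. Retinal RNA of C57BL/6J wild-type mice was sequenced at postnatal day 18 (PN18) in 3 OIR-CIH and 3 OIR-Norm libraries. Pups of both groups had first been kept with their mothers in 75% O2 for 5 days, from PN8 to PN13, which removes the capillaries of the central retina and is called oxygen-induced retinopathy (OIR). From PN13 the OIR-CIH pups underwent chronic intermittent hypoxia (CIH) for 10 h of each day, with 266 cycles of 135 s in which the cage O2 fell from 20.95% to 5% and came back. OIR-Norm pups received the same flow of gas without a change in O2, so that OIR-Norm is itself an ischemic retina and not a healthy one. No library of a retina without OIR is analysed here, and the comparison therefore asks what CIH adds to RNA levels in retinas that are already ischemic. The paper reports, from flatmounted retinas, a larger avascular area in OIR-CIH than in OIR-Norm at PN18. The groups are therefore not to be read as equally ischemic.

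HIF is a pair of proteins, an alpha subunit (HIF-1α or HIF-2α) and the constant partner ARNT. When oxygen is present, prolyl hydroxylases mark the alpha subunit, the VHL protein binds it and it is degraded. When oxygen is short, the alpha subunit builds up, enters the nucleus and binds the hypoxia response element, whose core reads ACGTG or GCGTG, near its target genes. Besides the glycolytic enzymes, these targets include secreted vessel and calcium hormones, proteins that remove or protect mitochondria, brakes on growth, enzymes that themselves need oxygen, and a carbonic anhydrase that sets the pH at the cell surface. In OIR the avascular retina is short of oxygen after the return to room air, and its neurons and Müller glia are known sources of HIF-driven transcripts.

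The libraries had total counts between 26289905 and 38010151. Of the 32285 genes, 20021 had at least 10 reads over the 6 libraries and were tested with edgeR's quasi-likelihood test, and a gene was called when its Benjamini-Hochberg adjusted p was under 0.05 and its log2 fold change was above 0.5 or below -0.5. CPM are counts scaled to a common library total with the trimmed mean of M-values. The labels give 3 eyes per group, which would be 1 eye per library, yet every library held both Xist and Y-linked RNA, which RNA of 1 eye would not give. What each library holds is therefore uncertain, n counts libraries, and p-values measure only the spread between these libraries. Markers of rods, cones, bipolar, amacrine, ganglion and Müller cells were present in all 6 libraries, as the label retina requires, with the summed rod markers between 44952 and 58342 CPM. OIR-Norm replicate 2 stood apart by its lens crystallin RNA, 356 CPM summed over 4 markers where the other libraries had 9.45 to 55.2 CPM.

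All 10 genes had a higher fitted level in OIR-CIH than in OIR-Norm, with log2 fold changes from 0.13 (P4ha1) to 0.54 (Car12) and a median of 0.23. None of the 10 was called, where 0.315% of all tested genes were called in either direction and 0.0999% were called as higher in OIR-CIH, and none had an adjusted p under 0.05 at any fold change, where 0.39% of all genes did. Over all tested genes, 49.5% had a log2 fold change above 0, the median was -0.0028, and 25% had a value at or above that of P4ha1. Unadjusted p from edgeR were under 0.05 for 6 of the 10 genes (Ddit4, Ndrg1, Stc2, Car12, Higd1a and Mxi1), against 6.2% of all genes on the same side. For 7 of the 10 genes each OIR-CIH library was above each OIR-Norm library (against 9.12% of all tested genes, with 9.26% apart in the opposite direction), and for Adm, Bnip3 and Car12 the groups overlapped. DESeq2 and limma, run on the same counts, also called 0 of the 10. In RNA of whole retinas, a change in RNA per cell and a change in the number of the cells that make it cannot be told apart.

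**Figure D1:**
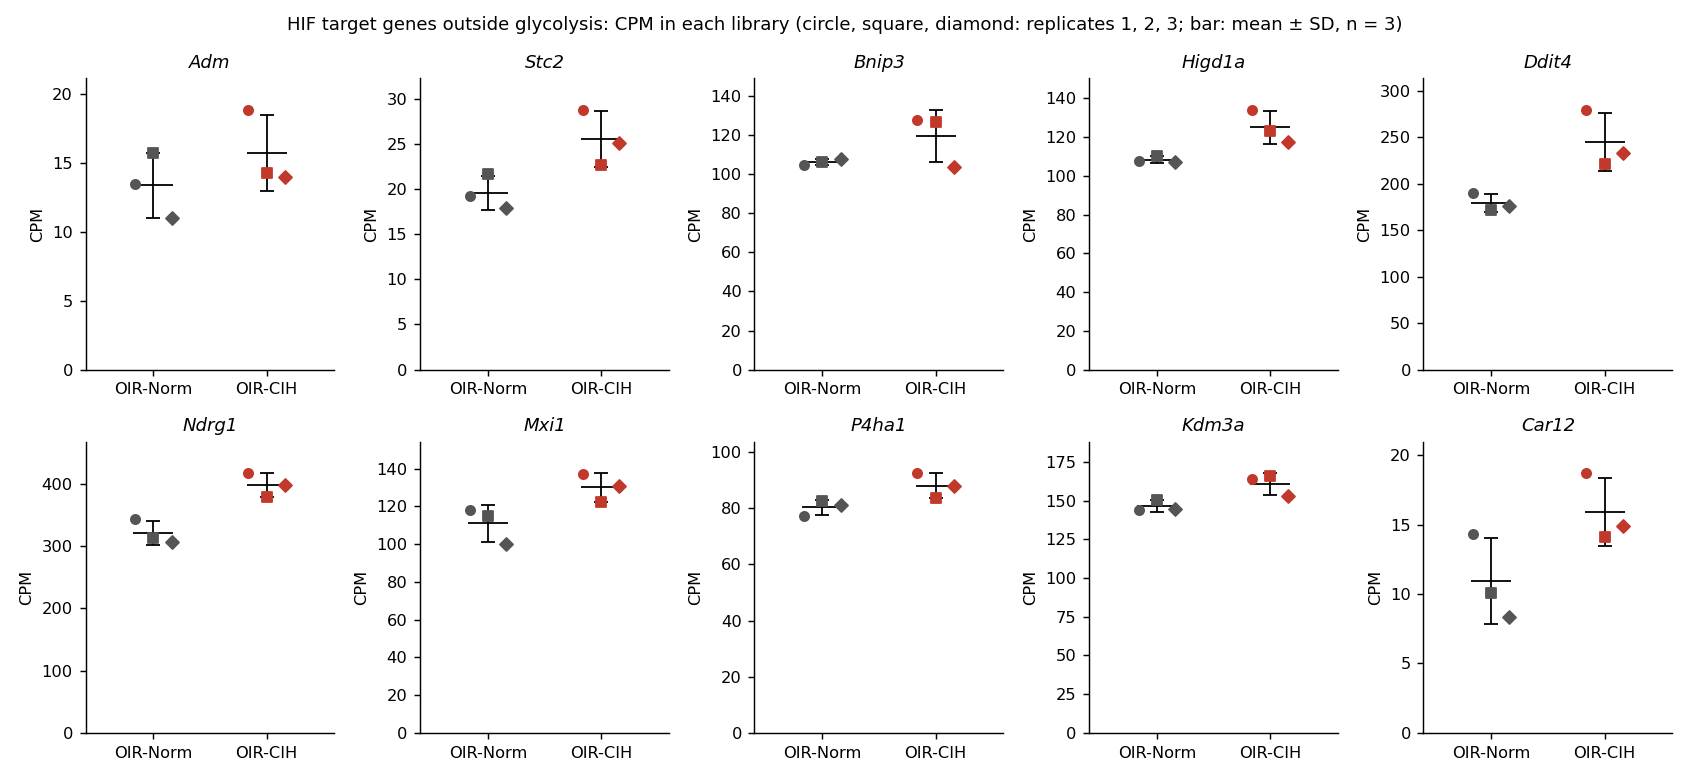
CPM of the 10 HIF target genes in the 3 OIR-Norm (grey) and 3 OIR-CIH (red) libraries, each panel on its own linear axis from 0; markers are libraries and bars the mean ± SD. Every OIR-CIH library lies above every OIR-Norm library for 7 genes, whereas the groups overlap for Adm, Bnip3 and Car12.

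RNA levels in OIR-Norm retinas, expressed per kilobase of exon so that genes can be compared, covered a wide range. Ddit4 had the highest level at 102.0 CPM per kb (SD 5.46, n = 3), followed by Ndrg1 at 48.6 and Bnip3 at 46.9, whose OIR-Norm ranges overlapped. Higd1a (35.7), P4ha1 (19.5), Kdm3a (17.8) and Mxi1 (16.3 CPM per kb) formed the middle of the order. Adm (8.27), Stc2 (3.79) and Car12 (1.44 CPM per kb) were the least abundant. In OIR-CIH the order of the means was unchanged, from 139.4 CPM per kb for Ddit4 to 2.09 for Car12, and Kdm3a and Mxi1 were the only neighbours whose OIR-CIH ranges overlapped.

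The promoters of these genes are shown because HIF acts through a short DNA motif. RefSeq promoter windows of GRCm38.p6, which run from 250 bases before to 50 bases after a start site, were found for 9 of the 10 genes, in 13 windows, since Mxi1 and Kdm3a have several start sites. Below are the parts of 6 windows that lie upstream of the first annotated exon, 5′ to 3′ on the strand of the gene, with each ACGTG or GCGTG in capitals. On the opposite strand these cores read CACGT and CACGC, and they are capitalised in that form too. Ddit4 is shown for the lowest p, Bnip3 for the most motifs, P4ha1 for the smallest change, the secreted pair Stc2 and Adm for their low levels, and Car12 for the largest change.
Ddit4 (chr10:59951835-59952020, minus strand): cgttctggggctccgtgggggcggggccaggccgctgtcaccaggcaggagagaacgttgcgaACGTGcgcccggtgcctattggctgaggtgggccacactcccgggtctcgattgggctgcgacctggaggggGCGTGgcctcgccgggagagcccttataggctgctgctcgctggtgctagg
Bnip3 (chr7:138909520-138909756, minus strand): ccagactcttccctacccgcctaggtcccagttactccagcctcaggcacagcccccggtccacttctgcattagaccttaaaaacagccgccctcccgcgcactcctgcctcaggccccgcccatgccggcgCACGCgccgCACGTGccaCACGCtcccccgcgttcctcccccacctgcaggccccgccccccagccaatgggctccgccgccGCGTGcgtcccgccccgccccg
P4ha1 (chr10:59323046-59323295, plus strand): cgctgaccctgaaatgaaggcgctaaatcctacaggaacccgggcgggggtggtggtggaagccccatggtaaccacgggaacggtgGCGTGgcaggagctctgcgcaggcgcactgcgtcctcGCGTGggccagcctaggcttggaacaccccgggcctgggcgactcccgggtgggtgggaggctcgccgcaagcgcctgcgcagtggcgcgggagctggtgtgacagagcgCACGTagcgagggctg
Stc2 (chr11:31370075-31370311, minus strand): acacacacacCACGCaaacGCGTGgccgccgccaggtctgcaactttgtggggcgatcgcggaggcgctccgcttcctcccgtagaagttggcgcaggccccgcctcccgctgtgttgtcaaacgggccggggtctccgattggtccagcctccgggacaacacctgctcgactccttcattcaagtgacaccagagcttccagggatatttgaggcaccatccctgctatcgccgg
Adm (chr7:110627407-110627656, plus strand): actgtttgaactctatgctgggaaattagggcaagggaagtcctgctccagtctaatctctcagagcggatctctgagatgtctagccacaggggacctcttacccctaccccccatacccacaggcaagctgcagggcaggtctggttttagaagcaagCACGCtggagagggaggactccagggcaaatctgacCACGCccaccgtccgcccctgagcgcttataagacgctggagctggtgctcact
Car12 (chr9:66713436-66713685, plus strand): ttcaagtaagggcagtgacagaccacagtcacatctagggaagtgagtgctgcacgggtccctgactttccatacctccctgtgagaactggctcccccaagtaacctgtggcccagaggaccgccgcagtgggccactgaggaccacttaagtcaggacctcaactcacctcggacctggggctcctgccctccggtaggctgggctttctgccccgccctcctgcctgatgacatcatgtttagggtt
The Ddit4 window held ACGTG starting 187 bases and GCGTG starting 115 bases before the start site. Bnip3 held 5 matches, of which a pair on opposite strands share the letters CACGTG, the motif called E-box that MYC, MAX and MXI1 are known to bind. P4ha1 held 3 matches, Stc2 and Adm 2 each and Higd1a 3, Mxi1 held a match in 2 of its 3 windows and Kdm3a in 1 of its 3. Car12 held none in its single window, which says only that these letters are not in this stretch.

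Of the 13 windows, 9 (69.2%) held a match, as did 14380 of the 32851 windows in the whole table (43.8%). By gene, 8 of 9 (88.9%) had a match in at least 1 window, against 46.7% of all genes in the table. The windows of these genes were rich in CG dinucleotides, with a median of 26 against 7 in all windows. Both cores contain CG, and among all windows with at least 26 CG dinucleotides the share with a match was 75.1%. Of the genes with such a window, 76.3% had a match in at least 1 of them. These windows were not matched to the 13 windows in CG, as their median was 33 CG dinucleotides. The 13 windows had from 0 to 49, and some of them lay below 26.

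Adm (ENSMUSG00000030790, chr7:110627661-110629820, plus strand) encodes adrenomedullin, a secreted peptide that widens vessels and supports endothelial cells. Its level was 18.9, 14.3 and 14.0 CPM in OIR-CIH replicates 1, 2 and 3, and 13.5, 15.7 and 10.995 CPM in OIR-Norm replicates 1, 2 and 3. The groups overlapped, as OIR-Norm replicate 2 was above OIR-CIH replicates 2 and 3. Means were 15.7 ± 2.75 (SD, n = 3) and 13.4 ± 2.36 CPM (SD, n = 3), and the log2 fold change was 0.23 (SE, the standard error, 0.15; edgeR adjusted p = 0.556) with a 95% interval of -0.10 to 0.56. Without OIR-CIH replicate 1 the log2 fold change was 0.075. Its receptor Calcrl had a log2 fold change of 0.08 (adjusted p = 0.870) and the receptor partner Ramp2 one of 0.08 (adjusted p = 0.917), and both turned negative, Calcrl to -0.000585 and -0.092 and Ramp2 to -0.14 and -0.16, when OIR-CIH replicate 3 and OIR-Norm replicate 3, respectively, were left out. Ackr3, which encodes a scavenger receptor that also takes up adrenomedullin, had a log2 fold change of -0.48 (adjusted p = 0.313).

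Stc2 (ENSMUSG00000020303, chr11:31357307-31370074, minus strand) encodes stanniocalcin 2, a secreted glycoprotein that is induced by hypoxia and by stress of the endoplasmic reticulum. OIR-CIH replicates 1, 2 and 3 had 28.8, 22.7 and 25.1 CPM, and OIR-Norm replicates 1, 2 and 3 had 19.2, 21.7 and 17.9 CPM. Each OIR-CIH library was above each OIR-Norm library, although OIR-CIH replicate 2 was close to OIR-Norm replicate 2. The means of 25.5 ± 3.11 (SD, n = 3) and 19.6 ± 1.91 CPM (SD, n = 3) gave a 1.30-fold difference, a log2 fold change of 0.38 (SE 0.11, 95% interval 0.14 to 0.63, edgeR adjusted p = 0.221). Its relative Stc1, also a HIF target, had a log2 fold change of 0.13 (adjusted p = 0.759), and the groups overlapped.

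Bnip3 and Higd1a encode proteins of mitochondria. Bnip3 (ENSMUSG00000078566, chr7:138890836-138909519, minus strand) encodes a receptor of the outer membrane that marks mitochondria for removal by autophagy. It had 127.9, 127.0 and 104.0 CPM in OIR-CIH replicates 1, 2 and 3, and 104.6, 106.4 and 107.7 CPM in the OIR-Norm replicates. OIR-CIH replicates 1 and 2 were well above the narrow OIR-Norm range, and OIR-CIH replicate 3 was the lowest of all 6 libraries. The means were 119.7 ± 13.5 (SD, n = 3) and 106.2 ± 1.53 CPM (SD, n = 3), with a log2 fold change of 0.17 (SE 0.085, edgeR adjusted p = 0.413) and a 95% interval from -0.013 to 0.35, and it was 0.26 without OIR-CIH replicate 3. The related receptor Bnip3l, which is known to clear mitochondria from red blood cells, had a log2 fold change of 0.10 (adjusted p = 0.637).

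Higd1a (ENSMUSG00000038412, chr9:121848563-121858362, minus strand) encodes a small inner-membrane protein that helps the respiratory chain under low oxygen. Its level was 134, 123 and 118 CPM in the OIR-CIH replicates, and 108, 110 and 107 CPM in the OIR-Norm replicates. The groups did not overlap, and the OIR-Norm libraries were close together. The log2 fold change was 0.20 (SE 0.072, 95% interval 0.048 to 0.36), from means of 124.9 ± 8.45 (SD, n = 3) and 108.4 ± 1.77 CPM (SD, n = 3), and edgeR's adjusted p was 0.287.

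Ddit4, Ndrg1 and Mxi1 encode proteins that restrain growth. Ddit4 (ENSMUSG00000020108, chr10:59949669-59951834, minus strand), whose upstream sequence opens the set above, encodes REDD1, an inhibitor of the growth kinase complex mTORC1. OIR-CIH replicates 1, 2 and 3 had 280, 221 and 233 CPM, and the OIR-Norm replicates had 190, 171 and 176 CPM. All OIR-CIH libraries were above all OIR-Norm libraries, and OIR-CIH replicate 1 was far above the other pair in its group. Mean levels were 245 ± 31.1 (SD, n = 3) and 179 ± 9.59 CPM (SD, n = 3), a 1.37-fold difference. The log2 fold change of 0.45 (SE 0.094, 95% interval 0.25 to 0.65) had the lowest p of the 10 genes, rank 100 among all genes tested, and an edgeR adjusted p of 0.0755. Under other settings that adjusted p was 0.00084 with DESeq2, 0.00394 with no filter on low counts and 0.0228 with a replicate block, and it was between 0.0659 and 0.304 when single libraries were left out. The log2 fold change stayed between 0.34, without OIR-CIH replicate 1, and 0.52, and passed the fold change threshold of 0.5 only in the fit without OIR-CIH replicate 2, at the adjusted p of 0.0659.

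Ndrg1 (ENSMUSG00000005125, chr15:66929318-66969640, minus strand) encodes a cytoplasmic protein that is strongly induced by hypoxia and by cell differentiation. Its reads gave 417, 379 and 397 CPM in the OIR-CIH replicates, and 342, 312 and 307 CPM in the OIR-Norm replicates, so that the groups lay apart with similar spreads. The means of 398 ± 18.9 (SD, n = 3) and 321 ± 19.2 CPM (SD, n = 3) differed 1.24-fold, a log2 fold change of 0.31 (SE 0.082, 95% interval 0.13 to 0.49, edgeR adjusted p = 0.173). With DESeq2 the adjusted p was 0.0124, under the p threshold but with a fold change short of the minimum.

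Mxi1 (ENSMUSG00000025025, chr19:53310518-53375810, plus strand) encodes a partner of MAX that opposes MYC at E-boxes. It had 137, 122 and 131 CPM in the OIR-CIH replicates, and 118, 115 and 99.99 CPM in the OIR-Norm replicates. The groups did not overlap, and OIR-Norm replicate 3 was the lowest. The log2 fold change was 0.23 (SE 0.082, 95% interval 0.052 to 0.41, edgeR adjusted p = 0.288), from means of 130.1 ± 7.58 (SD, n = 3) and 111 ± 9.66 CPM (SD, n = 3). Myc itself had a log2 fold change of -0.69 (SE 0.28, adjusted p = 0.328), and -0.35 without OIR-Norm replicate 2. Its level was low, from 1.26 to 3.89 CPM (32 to 111 reads per library), and the groups overlapped.

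P4ha1 and Kdm3a encode enzymes that use oxygen as a substrate, and had the smallest differences of the 10 genes. P4ha1 (ENSMUSG00000019916, chr10:59323296-59373304, plus strand) encodes the catalytic subunit of the prolyl hydroxylase that collagen needs to fold. It had 92.5, 83.7 and 87.8 CPM in the OIR-CIH replicates, and 77.4, 82.5 and 81.0 CPM in the OIR-Norm replicates. The groups lay apart by a narrow gap, between OIR-CIH replicate 2 and OIR-Norm replicate 2. Its log2 fold change was 0.13 (SE 0.069, 95% interval -0.018 to 0.28, edgeR adjusted p = 0.444), with means of 88.0 ± 4.42 (SD, n = 3) and 80.3 ± 2.62 CPM (SD, n = 3). Kdm3a (ENSMUSG00000053470, chr6:71588972-71632990, minus strand), a demethylase of histone H3 lysine 9, had 164, 166 and 153 CPM in the OIR-CIH replicates, and 144, 151 and 144 CPM in the OIR-Norm replicates. OIR-CIH replicate 3 and OIR-Norm replicate 2 were the closest libraries of the separated groups. The log2 fold change of Kdm3a was 0.14 (SE 0.071, 95% interval -0.016 to 0.29, edgeR adjusted p = 0.435), with means of 160.8 ± 7.01 (SD, n = 3) and 146.3 ± 3.79 CPM (SD, n = 3).

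Car12 (ENSMUSG00000032373, chr9:66713686-66766845, plus strand) encodes carbonic anhydrase 12, an enzyme at the cell surface that interconverts carbon dioxide and bicarbonate. OIR-CIH replicates 1, 2 and 3 had 18.7, 14.1 and 14.9 CPM, and OIR-Norm replicates 1, 2 and 3 had 14.3, 10.1 and 8.32 CPM. OIR-Norm replicate 1 was slightly above OIR-CIH replicate 2, so that the groups overlapped although the other OIR-Norm libraries were lower. From means of 15.9 ± 2.46 (SD, n = 3) and 10.9 ± 3.10 CPM (SD, n = 3), the fold difference was 1.46 and the log2 fold change 0.54 (SE 0.18, 95% interval 0.15 to 0.93, edgeR adjusted p = 0.270). It was 0.78 without OIR-Norm replicate 1 and 0.38 without OIR-Norm replicate 3, and none of these fits gave a call. Of the other carbonic anhydrases, Car14, which is known in Müller glia and pigment epithelium, had a log2 fold change of 0.40 (adjusted p = 0.0989), and Car2, a cytosolic form of Müller glia, one of 0.25 (adjusted p = 0.306).

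Car12 is also known in the pigment epithelium, the layer behind the photoreceptors that can remain on a dissected retina. The 6 pigment epithelium markers (Rpe65, Best1, Ttr, Rgr, Lrat and Tyrp1) summed to 464, 328 and 315 CPM in OIR-CIH replicates 1, 2 and 3, and to 329, 216 and 194 CPM in OIR-Norm replicates 1, 2 and 3. As with Car12, OIR-CIH replicate 1 was the highest library, OIR-Norm replicates 2 and 3 were the lowest, and OIR-Norm replicate 1 lay among the OIR-CIH libraries. The highest and lowest library were not particular to Car12, as OIR-CIH replicate 1 was also the highest and OIR-Norm replicate 3 the lowest for Adm, Stc2, Higd1a, Ndrg1 and Mxi1. Nor did every marker follow this order, since Tyrp1 was highest in OIR-Norm replicate 1 and Best1 in OIR-CIH replicate 3. Among these markers 4 were higher and 2 lower, with log2 fold changes from -0.40 (Tyrp1) to 0.80 (Lrat), a median of 0.62 and 0 called. None was at 0 in any library, and Best1 was the lowest, from 0.314 to 0.873 CPM. The part of these cells in the Car12 values was not tested.

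**Figure D2:**
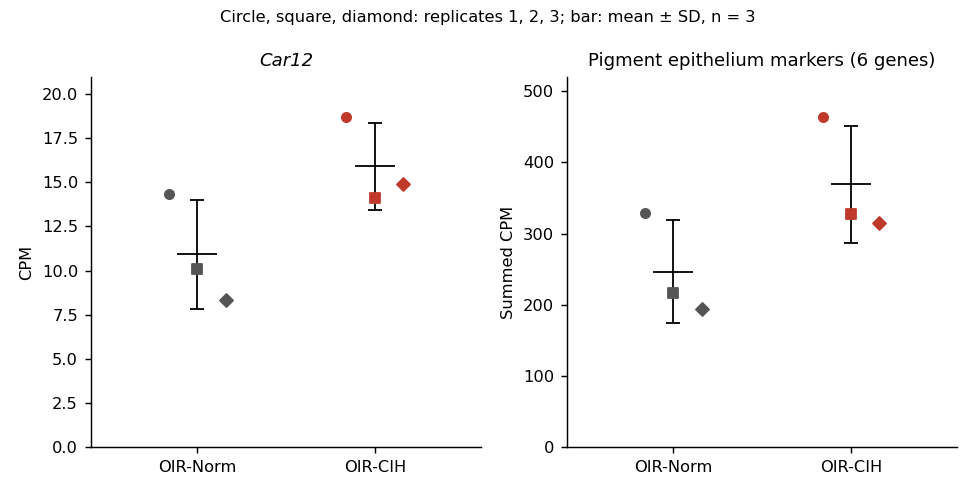
Left, Car12 CPM; right, summed CPM of the 6 pigment epithelium markers, in the 3 OIR-Norm (grey) and 3 OIR-CIH (red) libraries, with mean ± SD and linear axes from 0. In both panels OIR-CIH replicate 1 is the highest (18.7 and 464 CPM) and OIR-Norm replicate 3 the lowest (8.32 and 194 CPM). These are also the highest and lowest libraries for Adm, Stc2, Higd1a, Ndrg1 and Mxi1.

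Seen library by library, OIR-CIH replicate 1 held the highest value of 9 of the 10 genes, all but Kdm3a, where 17.6% of all tested genes had their highest value in that library. OIR-Norm replicate 3 held the lowest value of 6 of them (Adm, Stc2, Higd1a, Ndrg1, Mxi1 and Car12), where 14% of all tested genes were lowest there. The median deviation of the 10 genes from their own mean log2 CPM was 0.22, 0.083 and 0.095 in OIR-CIH replicates 1, 2 and 3, and -0.098, -0.068 and -0.23 in OIR-Norm replicates 1, 2 and 3. All 3 OIR-CIH medians were thus above 0 and all 3 OIR-Norm medians below it, with the largest deviations in 1 library of each group. The median log2 fold change of the 10 genes fell to 0.17 when OIR-CIH replicate 1 was left out and to 0.19 when OIR-Norm replicate 3 was, and it was 0.27 without OIR-Norm replicate 2, the library with lens RNA. In each of these fits all 10 genes kept a positive log2 fold change.

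**Figure D3:**
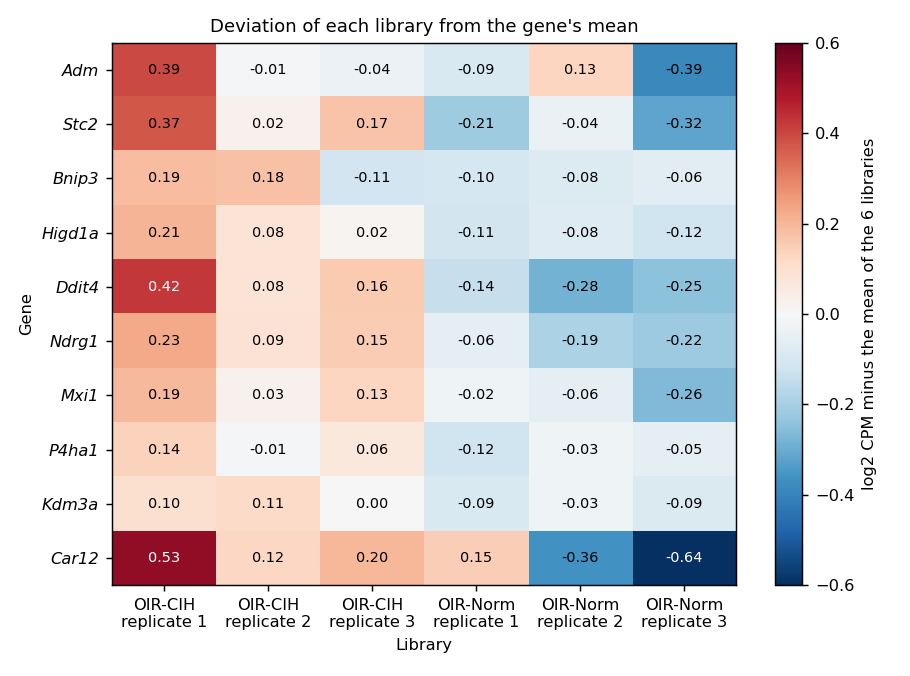
Log2 CPM of each of the 10 genes in each library minus the mean of that gene over the 6 libraries, in log2 units; red is above and blue below the mean. OIR-CIH replicate 1 is the highest for 9 genes and OIR-Norm replicate 3 the lowest for 6.

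Another 31 HIF targets outside glycolysis were examined beside the 10, and here 19 were higher and 12 lower in OIR-CIH (median log2 fold change 0.087, but 0.018 without OIR-Norm replicate 3 and 0.029 without OIR-CIH replicate 1). Unadjusted p from edgeR were under 0.05 for 9 higher and 2 lower genes of this list, against 6.2% and 7.01% of all tested genes. The groups did not overlap for 7 genes with OIR-CIH above and 2 with OIR-CIH below, against 9.12% and 9.26% of all tested genes. In this list 4 genes rose and 1 fell past both thresholds. Ankrd37, which encodes an ankyrin repeat protein and is a direct HIF-1 target, rose from 21.9 ± 1.54 (SD, n = 3) to 34.9 ± 1.47 CPM (SD, n = 3), a log2 fold change of 0.67 (SE 0.089, edgeR adjusted p = 0.00508). Ppp1r3c, which encodes a subunit that directs a phosphatase to glycogen, rose from 33.8 ± 2.62 (SD, n = 3) to 51.0 ± 1.57 CPM (SD, n = 3), with a log2 fold change of 0.59 (SE 0.080, adjusted p = 0.00541). Both kept their call whichever library was left out. The log2 fold change of Ankrd37 was thus above that of each of the 10 genes, whereas its standard error was about as large as that of Ddit4, but the difference between these genes was not tested.

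Tfrc, the transferrin receptor that brings iron into cells, rose from 162 ± 14.3 (SD, n = 3) to 233 ± 9.67 CPM (SD, n = 3), with a log2 fold change of 0.53 (SE 0.082, adjusted p = 0.0131). Its call was lost when OIR-CIH replicate 1 was left out (0.49, adjusted p = 0.0927) and, by the minimum fold change, when OIR-Norm replicate 3 was (0.47, adjusted p = 0.0495). Bhlhe40, a transcriptional repressor that HIF and the circadian clock both control, rose from 54.9 ± 8.13 (SD, n = 3) to 79.4 ± 4.06 CPM (SD, n = 3), with a log2 fold change of 0.53 (SE 0.098, adjusted p = 0.0361). Its call held in 1 of the 6 fits that each left out a library, the one without OIR-Norm replicate 2 (adjusted p = 0.0128), and adjusted p in the other fits were between 0.0614 and 0.217. Hilpda, a lipid droplet protein, was just short of both thresholds at 0.48 (adjusted p = 0.0505). Bhlhe40 and Hilpda were chosen for mention after their values had been seen.

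The gene that fell was Hmox1, heme oxygenase 1, at 8.56 ± 0.515 (SD, n = 3) in OIR-CIH and 39.0 ± 3.53 CPM (SD, n = 3) in OIR-Norm, a log2 fold change of -2.19 (SE 0.10, adjusted p = 6.84e-07). Besides HIF, it is a known target of NRF2 and of heme. It thus had the direction opposite to all 10 genes. Vegfa, the vessel growth factor that HIF drives in ischemic retina, had a log2 fold change of 0.20 (SE 0.14, adjusted p = 0.569), with overlapping groups. It was 0.098 without OIR-Norm replicate 3 and 0.39 without OIR-Norm replicate 2.

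**Figure D4:**
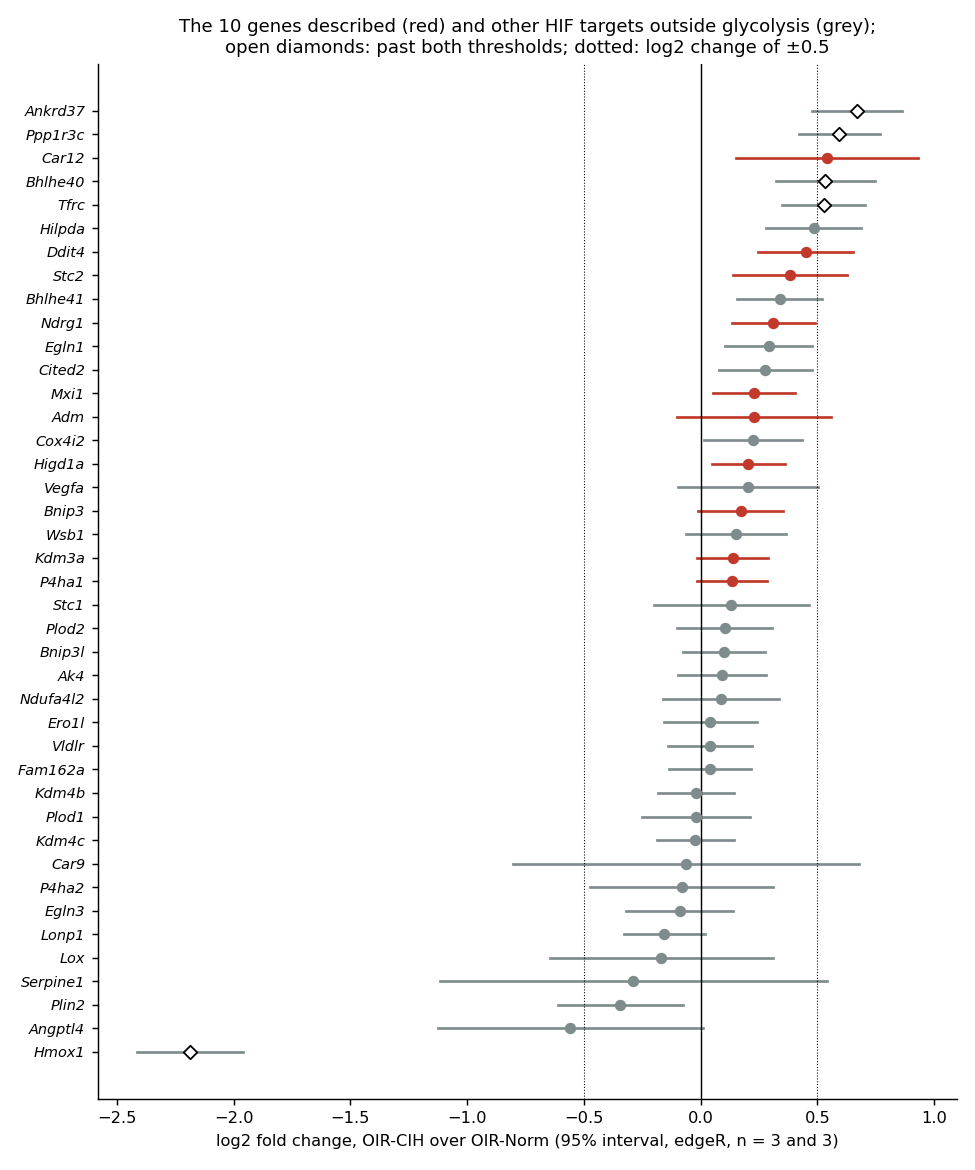
Log2 fold changes (OIR-CIH over OIR-Norm) with 95% intervals from edgeR for the 10 genes (red) and 31 other HIF targets outside glycolysis (grey), with open diamonds for called genes and dotted lines at the fold change threshold. The 10 genes lie between 0.13 and 0.54, Ankrd37, Ppp1r3c, Bhlhe40 and Tfrc are called as higher, and Hmox1, at -2.19, as lower.

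None of the HIF subunits and oxygen sensors was called, with 5 of 10 higher, a median log2 fold change of 0.020 (-0.0066 to 0.058 when single libraries were left out), and unadjusted p from edgeR under 0.05 for 1 higher and 2 lower genes. Hif1a had a log2 fold change of 0.08 (adjusted p = 0.740), Epas1, which encodes HIF-2α, one of 0.13 (adjusted p = 0.588), and their groups overlapped. The prolyl hydroxylase genes Egln1 and Egln3, which are HIF targets themselves, had values of 0.29 (adjusted p = 0.217) and -0.09 (adjusted p = 0.758). Hif3a, which encodes an alpha subunit with inhibitory forms, had a value of -0.52 (adjusted p = 0.243), and Hif1an one of -0.15 (edgeR adjusted p = 0.351). The groups did not overlap for 1 gene of this list with OIR-CIH above (Egln1) and 2 with OIR-CIH below (Hif3a and Hif1an). Over all tested genes these shares were 9.12% and 9.26%.

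Of 20 glycolytic HIF targets, 16 were higher and 4 lower, with a median log2 fold change of 0.057 (0.019 to 0.16 when single libraries were left out), 0 called, and unadjusted p from edgeR under 0.05 for 4 genes, all higher. Ldha, which makes lactate, had a log2 fold change of 0.33 (adjusted p = 0.272), Slc16a3, a lactate exporter, one of 0.32 (adjusted p = 0.224), and the glucose transporter Slc2a1 one of 0.20 (adjusted p = 0.472). Among 32 relatives and partners of the 10 genes, of which Bnip3l, Car9, P4ha2 and Stc1 are also among the other HIF targets, 20 were higher and 12 lower, with a median of 0.068 (0.033 to 0.098 when single libraries were left out), 0 called and unadjusted p under 0.05 for 6 higher and 5 lower genes. The median of 0.23 for the 10 genes was the highest of these lists, and no test compared the lists. DESeq2 and limma also called 0 genes in the lists of subunits and sensors, glycolytic targets, and relatives and partners.

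**Figure D5:**
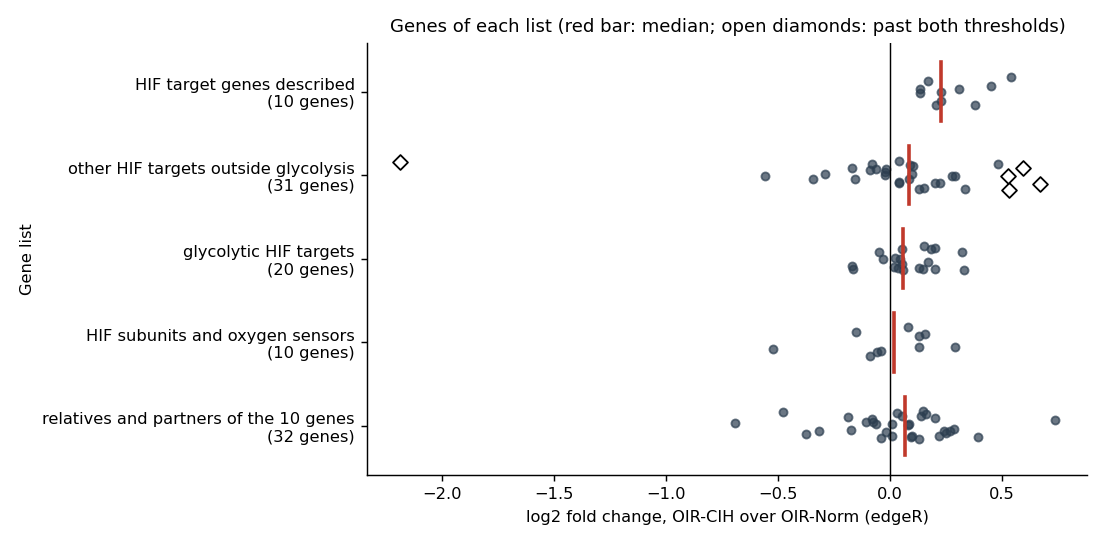
Log2 fold change (OIR-CIH over OIR-Norm, edgeR) of each gene in 5 lists, with the red bar at the median and open diamonds for called genes. The medians are 0.23 for the 10 genes, 0.087 for other HIF targets, 0.057 for glycolytic targets, 0.020 for subunits and sensors and 0.068 for relatives and partners.

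Markers of other retinal cell types were read beside these values. Several neuronal lists had higher fitted levels in OIR-CIH, as the 10 genes did, but the bipolar list did not. Of the bipolar markers 2 were higher and 3 lower, with a median log2 fold change of -0.0094, 0 called and overlapping sums. All 5 amacrine and horizontal markers were higher, with a median log2 fold change of 0.19 (0.088 without OIR-CIH replicate 3), 0 called, and sums of 459 to 576 CPM in OIR-CIH against 426 to 452 in OIR-Norm, which did not overlap. Of the rod markers 5 of 6 were higher (median 0.13), as were 4 of 5 cone (0.14) and 5 of 5 ganglion cell markers (0.041, and -0.054 without OIR-CIH replicate 2), with 0 called and overlapping sums. The pigment epithelium list, given beside Car12, had the highest median of all marker lists at 0.62, from 0.40 to 0.88 when single libraries were left out. On the other side, all 3 astrocyte and all 6 microglia markers were lower in OIR-CIH, with medians of -0.53 and -0.30, and Gfap and Mpeg1 were called. Their sums were 90.2 to 102 CPM for astrocytes against 157 to 201 in OIR-Norm, and 58.3 to 70.2 CPM for microglia against 77.0 to 92.4. Most of the astrocyte sum was Gfap, with 61.5 to 67.5 CPM in OIR-CIH and 119 to 158 CPM in OIR-Norm. The other astrocyte markers, Pdgfra (log2 fold change -0.46) and Pax2 (-0.53), were not called, so this sum is not a measure of astrocyte content. All 6 endothelial and all 5 pericyte and smooth muscle markers also had lower fitted levels, with medians of -0.40 and -0.51, but these medians were 0.038 and 0.0065 without OIR-Norm replicate 2, the library with lens RNA, and the sums of the groups overlapped. No marker of these lists was at 0 in a library. Müller glia markers, from the cell type that spans the retina, were mixed, with 3 of 5 higher, 0 called and summed levels of 2517 to 3014 CPM in OIR-CIH and 2414 to 2674 in OIR-Norm. The part of such shifts in the values of the 10 genes was not tested.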

How the data were processed

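Poly(A) RNA libraries were made from 250 ng of total RNA with a stranded kit. STAR (2.7.9a in the submitters' processing notes, which name GRCm38) was used for alignment, and the values the authors deposited are raw read counts per gene that were not normalized. The paper cites an Ensembl release of a later build, and the strand setting of the counting is not given in the sources used here, so overlapping antisense genes may share reads. Libraries were grouped by their labels. Gene symbols, coordinates and exon lengths came from GENCODE M21 (GRCm38) by gene identifier, and promoters from RefSeq. For the 2 listed symbols with 2 gene IDs (Aldoa and Ddit3), the ID with more reads was used.

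Genes with at least 10 reads in total were scaled by TMM and tested with edgeR 4.0.16 (glmQLFit, glmQLFTest) in R 4.3.3, and p-values were adjusted over all tested genes. DESeq2 1.42.0, limma 3.58.1 on log2(CPM + 0.5), median-of-ratios scaling, other filters, a replicate block, leaving out each library and dropping the minimum fold change were alternatives. All pairs of replicates differed by more than sampling noise. An exact permutation test of 3 against 3 libraries cannot give a p under 0.1. The 10 genes, the other lists and the tests were chosen with earlier results of these data known. Named were the 10 genes, Hif1a, Epas1, Vegfa, Egln3, Slc2a1, Ldha, Calcrl, Ramp2, Stc1 and Bnip3l, up to 4 genes with the lowest p of each other list, and cell type markers.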

Additional observations from a re-analysis of the deposited data

How the results depend on the processing

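The log2 fold changes of the 10 genes were above 0 in all 120 combinations of gene and alternative fit, and none was past both thresholds in any of them. Adjusted p were under 0.05 in 4 of the 120, for Ddit4 with DESeq2, with no filter on low counts and with a replicate block, and for Ndrg1 with DESeq2. The median of the 10 genes was between 0.17 and 0.28 when single libraries were left out, lowest without OIR-CIH replicate 1. Over all genes, 63 were called, and 135 with DESeq2, 213 with no filter on low counts and 78 with no minimum fold change, and the 63 were among those of DESeq2 and of no filter. Leaving out 1 library gave 35 (without OIR-CIH replicate 1) to 104 calls (without OIR-Norm replicate 3). The cause of these differences in count was not tested. Replicate numbers did not pair the libraries, as same-numbered libraries correlated at 0.16, 0.14 and -0.24 in their deviations from the group means, and 2 of 6 libraries correlated best with their own number. With a replicate block 84 genes were called. The sign changed for Calcrl without OIR-CIH replicate 3 (-0.000585) and without OIR-Norm replicate 3 (-0.092), and for Ramp2 in the same fits (-0.14 and -0.16), with highest values of 0.19 and 0.37 when other libraries were left out. The median of the HIF subunits and sensors, 0.020, was -0.000323 without OIR-CIH replicate 1 and -0.0066 without OIR-CIH replicate 3. Among the single genes outside the 10, leaving out libraries moved Stc1 between 0.0064 and 0.30, Slc2a1 between 0.084 and 0.29, Epas1 between 0.043 and 0.18, Hif1a between 0.033 and 0.10, Bnip3l between 0.052 and 0.16 and Egln3 between -0.19 and -0.039. Medians of the marker lists were examined under the same alternatives after the data had been seen. Without OIR-Norm replicate 2, those of endothelial, pericyte, lens (0.42) and bipolar markers (0.0025) changed sign. The bipolar median was also above 0 when another single library was left out, and reached 0.013. That of ganglion cell markers changed sign (-0.054) without OIR-CIH replicate 2. Intervals that include 0 (Adm, Bnip3, P4ha1 and Kdm3a) do not show equal levels.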

Other observations

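Genes that share regulators with Ddit4, Stc2 and Ndrg1 besides HIF were examined as values only. Ddit4 and Stc2 are known to be induced also by ATF4, the transcription factor of the integrated stress response. Of 14 genes, which are Atf4 itself and targets of that response, 9 were higher and 5 lower in OIR-CIH, and 1 was called. Their median log2 fold change was 0.17, and 0.10 without OIR-CIH replicate 1. Unadjusted p from edgeR were under 0.05 for 5 higher and 2 lower genes. The groups did not overlap for 6 genes with OIR-CIH above and 2 with OIR-CIH below, against 9.12% and 9.26% of all tested genes. The called gene was Slc7a11, the cystine importer, which fell by 0.86 on the log2 scale (SE 0.15, edgeR adjusted p = 0.0233) from 16.3 ± 2.92 (SD, n = 3) to 8.91 ± 1.05 CPM (SD, n = 3). Its call was lost in 4 of the 6 fits that each left out a library. Trib3 had a log2 fold change of 0.47 (adjusted p = 0.247), Psat1, an enzyme of serine synthesis, one of 0.31 (adjusted p = 0.212), and Nupr1, a stress-induced nuclear protein, one of -0.59 (adjusted p = 0.221, and 0.0477 with DESeq2).

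Ddit4 and Ndrg1 are also known to respond to glucocorticoids. Of 12 glucocorticoid-induced genes, 8 were higher and 4 lower in OIR-CIH (median log2 fold change 0.11, but 0.038 without OIR-CIH replicate 3 and 0.22 without OIR-CIH replicate 2), with 0 called by edgeR, DESeq2 or limma, and unadjusted p from edgeR were under 0.05 for 3 genes, all of them higher. Klf9 had the lowest p, with a log2 fold change of 0.32 (SE 0.083, adjusted p = 0.173), and was followed by Errfi1 and Per1, at 0.20 each (adjusted p = 0.331 and 0.363). No library in this series separates HIF, ATF4 or glucocorticoids as the regulator of Ddit4, Stc2 or Ndrg1.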
